A study of Danio rerio with 2 samples.

Results

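Solute carriers and inorganic ion transport genes were examined in whole zebrafish embryos (Danio rerio) that lack both working copies of ezh2. Of 1287 genes in the deposited table, all of which the authors called different between an ezh2 mutant and a wild-type (WT) library, 30 were members. A gene was a member if its protein annotation (NR or Swiss-Prot) names it a solute carrier, or if its class among the orthologous groups of eukaryotic proteins (KOG) is inorganic ion transport and metabolism. Of the 30 members, 14 came in by name and 20 by class, with 4 meeting both criteria. The text of the rule caught 31 genes. The red cell anion exchanger slc4a1a was left out of these, and the red cell mitochondrial iron carrier slc25a37 was left out as well. None of the 31 names a globin.

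The ezh2-/- library came from embryos labelled as homozygous for the ezh2 mutation. The WT library came from embryos labelled WT. Both were made from whole embryos of the AB strain at 28 hours post fertilization, bred by natural crosses, with no treatment. No source used here gives the mutant allele, the number of embryos pooled or whether maternal Ezh2 was present. The ezh2 gene is not among the listed genes, so the genotype label could not be checked on it. Each genotype had 1 library, so no difference below has a replicate check and no p-value is given. Fold changes compare those libraries, on the scale implied by the authors' own fold changes. Brackets after a fold hold its 95% exact (Clopper-Pearson) interval, which covers counting error only. In RNA from whole embryos, fewer cells of a type and less RNA per cell cannot be told apart.

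Solute carriers are membrane proteins that move ions, metabolites, vitamins and drugs, either down a gradient or coupled to the movement of another ion, and are numbered by sequence family. Ion channels let ions pass through a pore, and ferritins store iron inside cells. In fish embryos, ion balance is kept by ionocytes of the skin before gills form, and the pronephros, the embryonic kidney, recovers solutes with many of the same carriers. Ezh2 is the enzyme of Polycomb repressive complex 2, which places a repressive methyl mark on histone H3.

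Most members were higher in the ezh2-/- library. At least 2-fold higher were 27 of the 30 members (90.0%), against 68.1% of all 1287 listed genes. At least 2-fold lower were 3 members, the potassium channel subunit gene kcnf1a and the carrier genes slc10a4 and slc16a6a, against 31.9% of listed genes. With the left-out slc4a1a and slc25a37 put back, 27 were higher and 5 lower. The authors' selection kept no gene that differed less than 2-fold by their own fold change, so nearly every member had to fall on one side or the other. The median log2 fold change of the members was 1.48, against 1.31 over all listed genes. Members at least 4-fold higher numbered 7 (23.3%), close to the 22.5% of listed genes, and 1 member (3.33%) was at least 4-fold lower, against 4.58% of listed genes. The share of higher members thus lay above that of listed genes at 2-fold and next to it at 4-fold. Counts of higher members by family, given below, are to be read beside the same 68.1%.

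The direction went with the level in WT. The median WT level over all listed genes was 2.41 FPKM (the authors' fragment number per gene, divided by transcript length and depth). Below it stood 18 members, of which 17 were higher, and 92.7% of the 643 listed genes below it were higher. At or above it stood 12 members, of which 10 were higher, whereas 43.5% of the 644 listed genes in that range were. Members with a low WT level thus had a share near that of listed genes of that level, and members with a higher WT level had a share above it. That higher share depends in part on the genes left out. Both slc4a1a (56.7 FPKM in WT) and slc25a37 (3.38 FPKM in WT) lie in this range and were lower, and the listed genes include them. The WT count is also the denominator of the fold. With 12 such genes, 1 library a genotype and no test, this is a description of the table. This split of the levels was chosen after the values were seen.

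**Figure D1:**
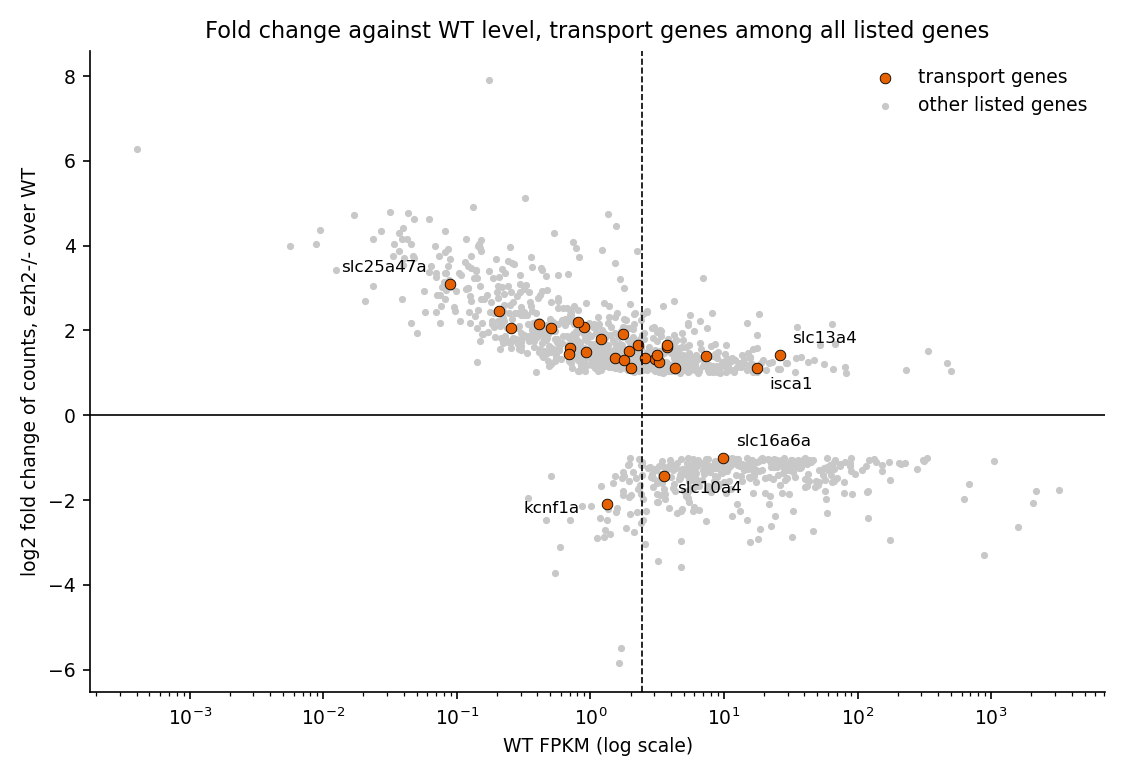
Log2 fold change of counts (ezh2-/- over WT, vertical axis) against the WT level in FPKM (log scale) for the 30 transport genes (orange) and the other listed genes (grey); the dashed line is the median WT level, 2.41 FPKM, and 24 listed genes at 0 FPKM in WT are not drawn. No gene lies near a fold change of 0, because the authors selected for difference, and 17 of the 18 transport genes left of the dashed line are higher in the mutant library.

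Levels of most members were low in both libraries. The median member had 4.29 FPKM in the ezh2-/- library and 1.86 FPKM in the WT library. Below 5 FPKM were 16 members in the ezh2-/- library and 26 in the WT library, and below 1 FPKM were 2 members in the ezh2-/- library and 10 in the WT library. Counts ran from 13 to 3757 in the ezh2-/- library and from 3 to 1426 in the WT library. At least 50 counts in one library were reached by 27 members, and none had 0 counts. The exact interval lay wholly past 2-fold for 18 of the higher members and 2 of the lower ones, or 66.7% of members, against 68.0% of listed genes. In the authors' deposited table, the FDR (adjusted p-value) of the members ran from 1.62e-09 for alpi.2 to 0.00886 for a kcna2-like gene, and those values compare 1 library with 1 library.

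A single gene, slc13a4, held the largest part of the members' summed level, 26.8% in the ezh2-/- library and 24.3% in the WT library. It encodes a sodium-coupled sulfate carrier. Next in both libraries was isca1, a gene of iron-sulfur cluster assembly, with 15.3% in the ezh2-/- library and 16.3% in the WT library. The fifth gene by level in the ezh2-/- library, slc22a23, had 10.9 FPKM. The remaining members thus made up a long tail of weakly expressed genes.

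**Figure D2:**
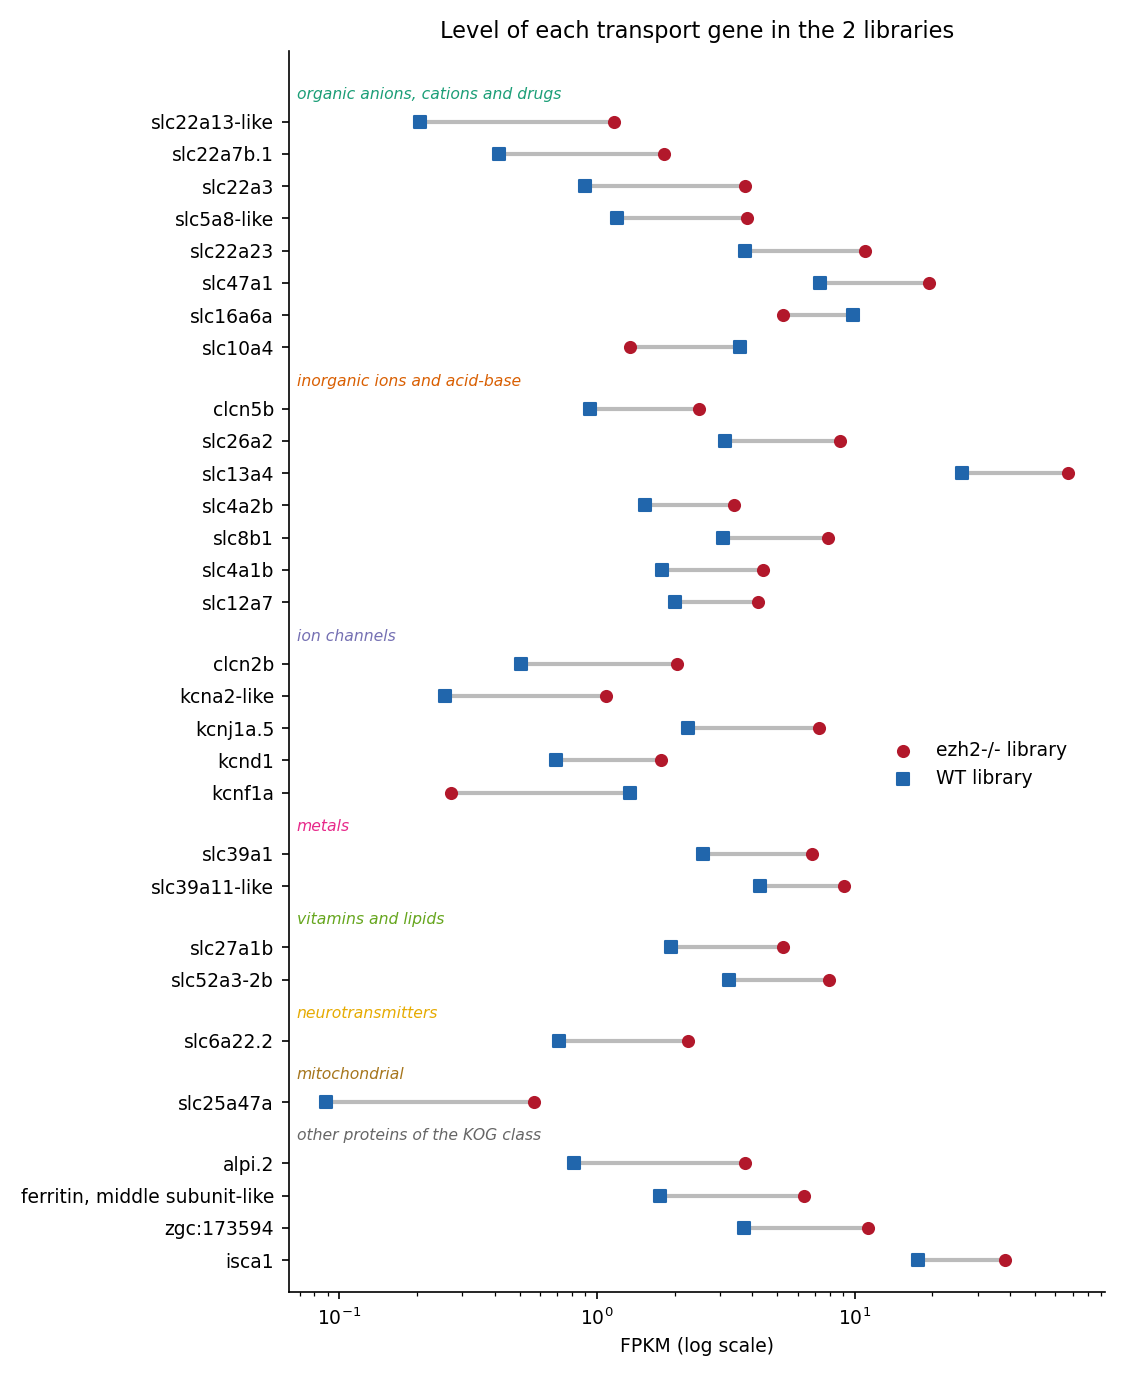
Level of each of the 30 genes in FPKM (log scale) in the ezh2-/- library (red circles) and the WT library (blue squares), grouped by substrate family, with 1 library per genotype and no error bars. The red circle lies to the right of the blue square in 27 genes and to the left in slc16a6a, slc10a4 and kcnf1a; slc13a4 is the highest in both libraries at 66.9 FPKM in ezh2-/- and 26.1 FPKM in WT.

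All 7 members that carry inorganic ions or exchange acid and base equivalents were higher in the ezh2-/- library, with log2 fold changes between 1.11 and 1.503 and a median of 1.36. Their summed level was 98.0 FPKM in the ezh2-/- library and 38.6 FPKM in the WT library. None reached 4-fold. The family thus had a narrow range of fold changes, although its members differ in level by more than an order of magnitude. The authors' limit of 2-fold cut off any smaller fold change. Of all listed genes, 68.1% were higher, and 92.7% of those below the median WT level of 2.41 FPKM. The median WT level of this family was 2.01 FPKM. Its genes slc13a4, slc26a2 and slc8b1 lay above 2.41 FPKM in WT (26.1, 3.15 and 3.07 FPKM). Of listed genes at or above that level, 43.5% were higher.

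Both sulfate carriers in the table were in this family. The gene slc13a4 had 3757 counts in the ezh2-/- library and 1426 in the WT library, a 2.66-fold difference (2.50 to 2.83), the narrowest interval of any member. Sulfate that enters the cell is used to sulfate proteoglycans, hormones and drugs. The other gene, slc26a2, encodes a sulfate/anion exchanger whose loss in humans causes skeletal dysplasia. It had 535 counts (8.78 FPKM) in the ezh2-/- library and 200 counts (3.15 FPKM) in the WT library, a 2.70-fold difference (2.29 to 3.19). The folds of this pair lay inside each other's intervals, at levels that differed several-fold.

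Chloride and bicarbonate exchange was represented by slc4a2b and slc4a1b. With 303 counts (3.40 FPKM) in the ezh2-/- library and 119 counts (1.54 FPKM) in the WT library, slc4a2b was 2.57-fold higher (2.07 to 3.21). Its FPKM ratio was smaller, 2.21. The paralogue slc4a1b, which in zebrafish is used by ionocytes, had 230 counts (4.38 FPKM) in the ezh2-/- library and 94 counts (1.78 FPKM) in the WT library, 2.47-fold higher (1.94 to 3.18). The left-out sister gene slc4a1a went the other way. This locus, taken as slc4a1a from its product name, the band 3 anion transporter of red cells, had 1000 counts (16.1 FPKM) in the ezh2-/- library and 3467 counts (56.7 FPKM) in the WT library, 3.43-fold lower (3.199 to 3.69). The left-out slc25a37 (mitoferrin-1) was likewise lower, with 257 counts in the ezh2-/- library and 677 in the WT library.

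The remaining 3 ion carriers of the family move chloride, potassium or calcium. The potassium-chloride cotransporter gene slc12a7, of which zebrafish have more than 1 copy that the table does not tell apart by name, had 323 counts in the ezh2-/- library and 151 in the WT library, a 2.16-fold difference (1.78 to 2.64). The chloride/proton exchanger gene clcn5b, related to the human gene that is mutated in Dent disease of the kidney, had 144 ezh2-/- and 51 WT counts, 2.85-fold higher (2.06 to 4.01). The gene slc8b1, which encodes the sodium/calcium exchanger of mitochondria, had 135 counts (7.87 FPKM) in the ezh2-/- library and 54 counts (3.07 FPKM) in the WT library, 2.52-fold higher (1.83 to 3.53). All 3 were higher, and the intervals of slc12a7 and slc8b1 reach below 2-fold.

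**Figure D3:**
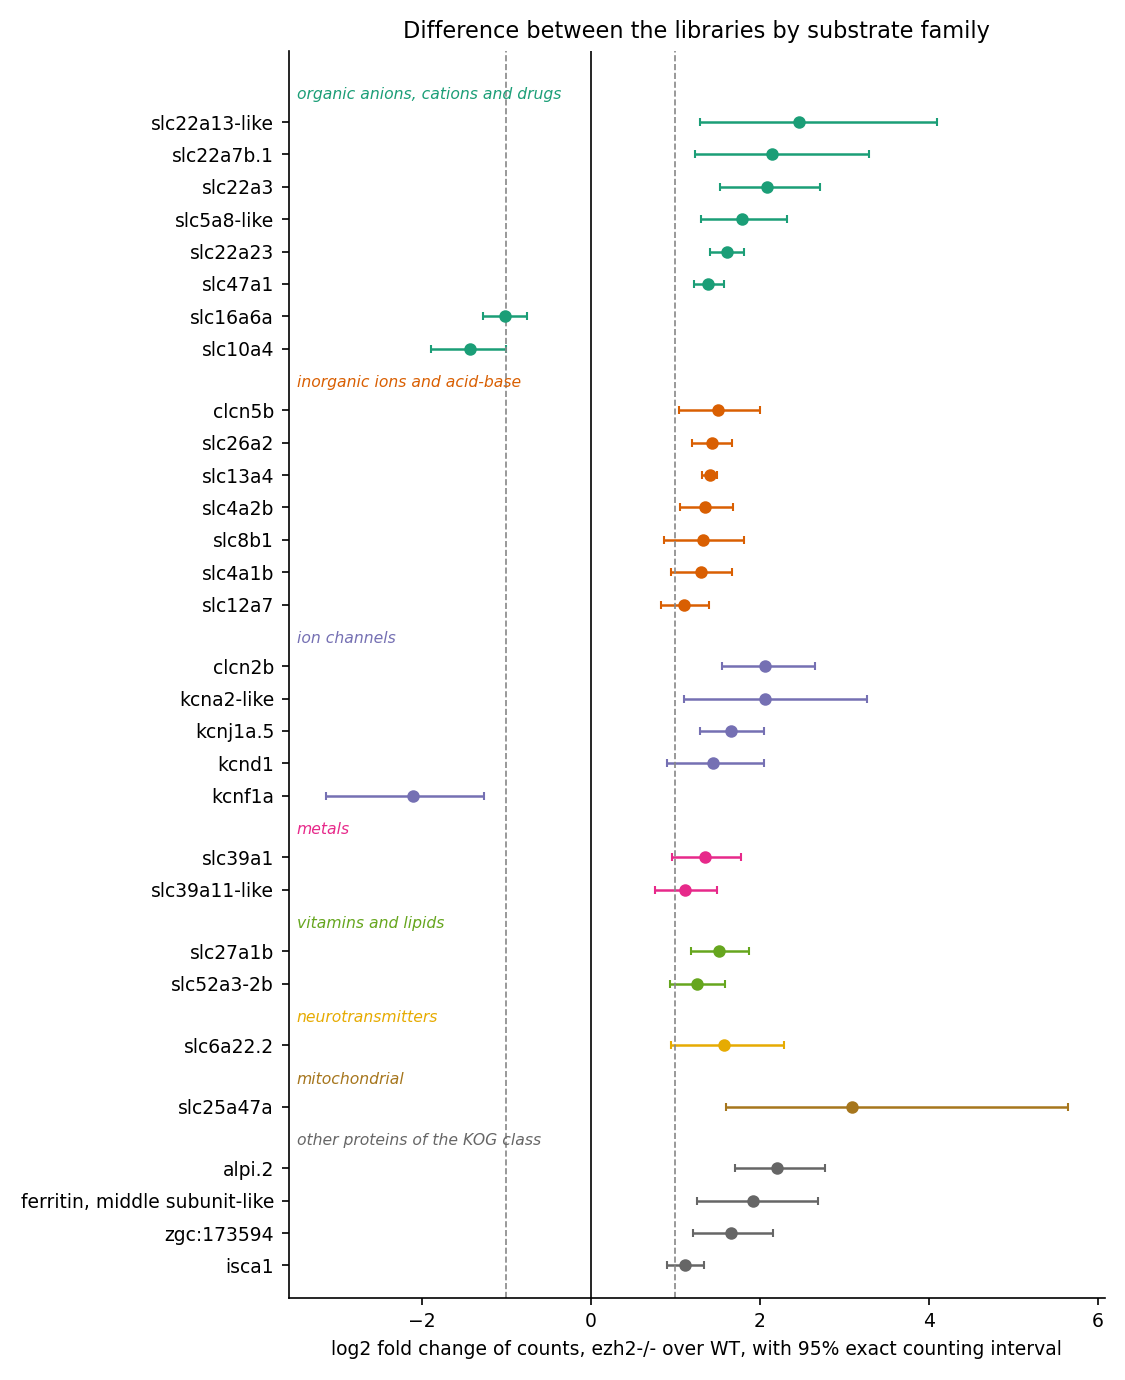
Log2 fold change of counts (ezh2-/- over WT) of each of the 30 genes by substrate family, with bars for the 95% exact counting interval and dashed lines at 2-fold in either direction. The inorganic ion family sits between 1.11 and 1.503, and the widest bars belong to the genes with the fewest counts, such as slc25a47a with 29 counts in ezh2-/- and 3 in WT.

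Carriers of organic anions, cations and drugs formed the largest family by number of genes: 6 of 8 members were higher and 2 lower. The median log2 fold change over the 8 was 1.70. Its summed level was 47.4 FPKM in the ezh2-/- library and 27.2 FPKM in the WT library. The ratio of these sums, 1.74, was the smallest of any family, since 1 of the lower genes, slc16a6a, was the most abundant of the family in WT.

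All 4 members of solute carrier family 22 were higher, against 68.1% of all listed genes. This family carries organic anions and cations, in mammals chiefly in kidney and liver, and all 4 have a frog slc22a6 protein as their closest Swiss-Prot match. The most abundant, slc22a23, an orphan carrier, had 804 counts (10.9 FPKM) in the ezh2-/- library and 266 counts (3.73 FPKM) in the WT library, a 3.05-fold difference (2.65 to 3.52). The organic cation carrier gene slc22a3 had 132 counts (3.73 FPKM) in the ezh2-/- library and 31 counts (0.893 FPKM) in the WT library, 4.30-fold higher (2.89 to 6.58). The other two were rarer: slc22a7b.1 was 4.59-fold higher (2.36 to 9.78) with 50 ezh2-/- and 11 WT counts, and a gene named slc22a13-like (gene36893) was 5.89-fold higher (2.45 to 17.1) with 35 ezh2-/- and 6 WT counts. Lower levels went with larger folds and wider intervals here. All but slc22a23 lay below the median WT level, where 92.7% of listed genes were higher. Summed over the 4 genes, there were 1021 counts in the ezh2-/- library and 314 in the WT library, a 3.28-fold difference (2.89 to 3.74). Most of these counts were those of slc22a23, so the sum mainly reflects that gene.

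Efflux and monocarboxylate carriers divided. The gene slc47a1 encodes a multidrug and toxin extrusion protein, which exports organic cations in exchange for protons. It was the third most abundant member in the ezh2-/- library, with 942 counts (19.4 FPKM) there and 362 counts (7.30 FPKM) in the WT library, 2.63-fold higher (2.33 to 2.98). A gene named sodium-coupled monocarboxylate transporter 1 (slc5a8-like, gene5281), a type that takes up lactate and short fatty acids together with sodium, had 152 counts (3.82 FPKM) in the ezh2-/- library and 44 counts (1.1985 FPKM) in the WT library, 3.49-fold higher (2.48 to 4.998).

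The other monocarboxylate carrier among the members was lower. Outside the members, slc16a8 (monocarboxylate transporter 3) was higher, with 186 ezh2-/- and 86 WT counts. In zebrafish, slc16a6a exports the ketone body beta-hydroxybutyrate from liver cells. It had 186 counts (5.25 FPKM) in the ezh2-/- library and 380 counts (9.87 FPKM) in the WT library, 2.02-fold lower (1.69 to 2.42). This is the member nearest to the authors' limit of 2-fold, at a log2 fold change of -1.01, and it fell short of 2-fold with 5 counts added (-0.997) and in FPKM, where it was 1.88-fold lower. A second locus, named monocarboxylate transporter 7-like, has its KEGG match in slc16a6a too. It was higher, with 313 counts in the ezh2-/- library and 112 in the WT library. Reads of related copies may have been divided between these loci, so the direction of slc16a6a as a gene is uncertain. The orphan carrier gene slc10a4, named after the bile acid cotransporters and known in mammals from synaptic vesicles, had 60 counts (1.34 FPKM) in the ezh2-/- library and 164 counts (3.57 FPKM) in the WT library, 2.71-fold lower (2.002 to 3.70).

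**Figure D4:**
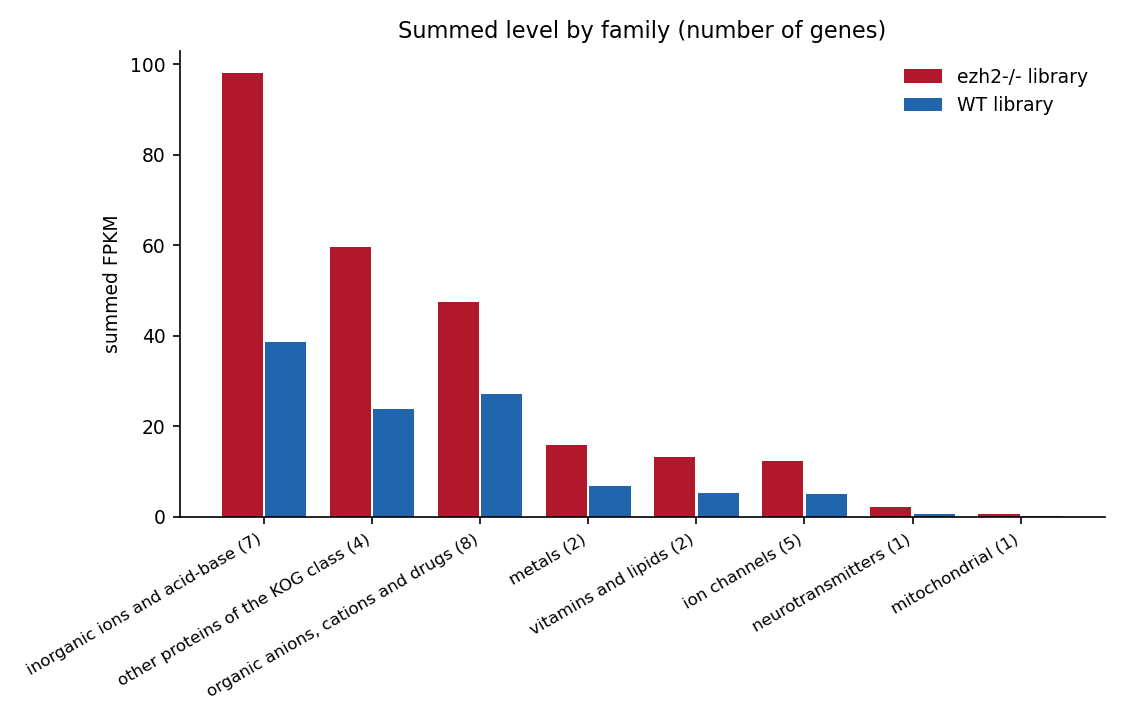
Summed FPKM of the listed members of each family in the ezh2-/- library (red, left) and the WT library (blue, right), with the number of genes in brackets and 1 library per genotype. Sums are dominated by slc13a4 in the inorganic ion family and by isca1 among the other proteins of the KOG class; the organic ion and drug family has the smallest ratio, 47.4 FPKM in ezh2-/- against 27.2 FPKM in WT.

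Of 5 ion channel genes, 4 were higher and 1 lower. Their summed level was small, 12.4 FPKM in the ezh2-/- library and 5.05 FPKM in the WT library. All 5 lay below the median WT level of 2.41 FPKM, where 92.7% of listed genes were higher. The chloride channel gene clcn2b had 151 counts (2.03 FPKM) in the ezh2-/- library and 36 counts (0.507 FPKM) in the WT library, 4.24-fold higher (2.93 to 6.28). The most abundant channel, kcnj1a.5, belongs to a group whose mammalian counterpart secretes potassium in the kidney. It had 242 counts (7.24 FPKM) in the ezh2-/- library and 77 counts (2.26 FPKM) in the WT library, 3.17-fold higher (2.45 to 4.16).

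Voltage-gated potassium channels went both ways. The A-type channel gene kcnd1 had 101 ezh2-/- and 37 WT counts, 2.76-fold higher (1.87 to 4.13), and a kcna2-like gene (gene4056), whose mammalian relative acts in axons, had 43 ezh2-/- and 10 WT counts, 4.34-fold higher (2.15 to 9.69). In contrast, kcnf1a had 13 counts (0.271 FPKM) in the ezh2-/- library and 58 counts (1.34 FPKM) in the WT library, 4.42-fold lower (2.39 to 8.79). This gene encodes an electrically silent subunit, which forms no channel alone and in mammals modifies other potassium channels. It was the only member at least 4-fold lower, and its level in the ezh2-/- library was the lowest of all members there. Of 6 neuron markers, 1 was matched by symbol, elavl3, with 61.9 FPKM in the ezh2-/- library and 121.1 FPKM in the WT library. Its part in the lower values of kcnf1a and slc10a4 was not tested.

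Metal carriers numbered 2, both zinc importers of family 39, and both were higher. The gene slc39a1 had 183 counts (6.80 FPKM) in the ezh2-/- library and 72 counts (2.57 FPKM) in the WT library, 2.57-fold higher (1.94 to 3.42). A ZIP11-like gene (gene22500) had 200 counts (9.07 FPKM) in the ezh2-/- library and 93 counts (4.30 FPKM) in the WT library, 2.17-fold higher (1.69 to 2.81). Both intervals reach below 2-fold. Gene lists throughout were matched by symbol, or by product name for a few loci. Of the 1287 listed genes, 630 have no symbol and could hold further list genes. Of 14 genes of a list of zinc and copper handling, none was matched; slc39a1 and the ZIP11-like gene are not on that list.

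Iron genes that are no carriers came in through the KOG class. A ferritin middle subunit-like gene (gene4134) had 84 counts (6.33 FPKM) in the ezh2-/- library and 22 counts (1.75 FPKM) in the WT library, 3.86-fold higher (2.39 to 6.48). A second ferritin locus, zgc:173594, had 158 counts (11.2 FPKM) in the ezh2-/- library and 50 counts (3.72 FPKM) in the WT library, 3.19-fold higher (2.31 to 4.48). Both have the same salmon ferritin as their closest Swiss-Prot match, and how reads were split between the pair is uncertain. Summed, they had 242 ezh2-/- and 72 WT counts, a 3.40-fold difference (2.60 to 4.48). The gene isca1 was abundant and had a smaller fold, with 560 counts (38.3 FPKM) in the ezh2-/- library and 260 counts (17.6 FPKM) in the WT library, 2.18-fold higher (1.87 to 2.53).

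Other iron and heme genes, from a list of 24, went both ways. Higher were cp, which encodes the copper-bearing ferroxidase ceruloplasmin, with 36.5 FPKM in the ezh2-/- library and 16.9 FPKM in the WT library, and hamp, the iron hormone hepcidin, with 38 ezh2-/- and 2 WT counts. Lower were alas2, the first enzyme of heme synthesis in red cells, with 20.9 FPKM in the ezh2-/- library and 55.5 FPKM in the WT library, and the metalloreductase gene steap3, with 1.42 FPKM in the ezh2-/- library and 4.13 FPKM in the WT library. All 9 erythroid markers were listed and all 11 of their loci were lower, with a summed level of 2532 FPKM in the ezh2-/- library and 10660 FPKM in the WT library. The part of red cell RNA in the values of the iron genes was not tested.

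The last 5 members handle phosphate, lipids, a vitamin, neurotransmitters and mitochondrial metabolites, and all were higher. The gene alpi.2 encodes intestinal-type alkaline phosphatase, which removes phosphate groups at the gut surface, and had 171 counts (3.74 FPKM) in the ezh2-/- library and 37 counts (0.813 FPKM) in the WT library, 4.67-fold higher (3.26 to 6.85). The fatty acid carrier gene slc27a1b, whose product also links fatty acids to coenzyme A, had 282 ezh2-/- and 99 WT counts, 2.88-fold higher (2.28 to 3.65). The riboflavin carrier gene slc52a3-2b had 266 ezh2-/- and 112 WT counts, 2.40-fold higher (1.92 to 3.02). Riboflavin is vitamin B2, the precursor of flavin cofactors. The gene slc6a22.2, of the sodium-coupled family that takes up neurotransmitters and amino acids, had 81 ezh2-/- and 27 WT counts, 3.03-fold higher (1.94 to 4.87).

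The largest fold of any member was that of slc25a47a, a mitochondrial inner membrane carrier known in mammals from liver, and it rested on the fewest counts. It had 29 counts (0.569 FPKM) in the ezh2-/- library and 3 counts (0.0885 FPKM) in the WT library, a 9.76-fold ratio with a counting interval of 3.03 to 50.1. Its log2 fold change was 3.09, against 2.10 with 5 counts added, 2.72 in the authors' deposited table and an FPKM ratio of 6.43. All 7 members at least 4-fold higher had under 1 FPKM in the WT library. The table holds only genes called different, and a gene with few WT counts needs a large fold to be called. The part of this selection in the link between level and fold was not tested. Of all listed genes below the median WT level, 92.7% were higher.

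Count and FPKM ratios were close for most members. The FPKM ratio of a member departed by more than 10% from its count ratio, after allowing for the typical relation of the pair of measures, in 3 of 30 members (10.0%), against 21.9% of 1262 listed genes. These members were slc25a47a, with a departure of -34.9%, slc4a2b and kcnf1a. What produced the departures was not tested.

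Gene ontology terms were given for 25 members. The rule picked transport proteins by name and class, so membrane and transport terms among the members follow from that choice. The listed genes with terms include these 25 members. Of the 25, 16 (64.0%) carried the term integral component of membrane, against 18.0% of the 816 listed genes with terms. Of the 16, 15 were higher, against 77.6% of the 147 listed genes with that term. A term containing transmembrane transport was carried by 20 members. Of these 20, 17 were higher, a share close to the 84.0% of the 50 listed genes with such a term. Such a term was also carried by 30 listed genes that are not members, of which 25 were higher and 5 lower (83.3% higher). Split at the same WT level, 17 of 18 such genes below it and 8 of 12 at or above it were higher, against the 92.7% and 43.5% of all listed genes given above for those ranges.

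By symbol, 24 members were found in the RefSeq gene table of assembly GRCz12tu, used here for gene order alone. A gene of the same family number or name stood within 3 genes of 6 of them: kcnj1a.5, slc22a7b.1, slc47a1, slc6a22.2, alpi.2 and slc25a47a. For slc25a47a, that neighbour was slc25a29. These matches rest on family number or name, and how alike the sequences are was not compared. The ferritin middle subunit-like gene was not found by symbol, so whether it lies near zgc:173594 was not examined. Counts of a locus beside a close copy may include reads of that copy. A listed gene was the direct neighbour of 3 members, and each of the 3 pairs was higher in the ezh2-/- library. The pairs were slc22a23 with dspa, slc25a47a with dio3b, and slc27a1b with adgre5b.3. Of all members 90.0% were higher, and of all listed genes 68.1%, so such pairs are common by these shares alone. Listed genes without a symbol could not be matched as neighbours.

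Genes that mark the tissues in which such carriers act were rarely matched by symbol. Of 11 ionocyte markers, among them the regulators foxi3a, foxi3b and gcm2, none was matched. The related forkhead gene foxi1, which is on no list and was looked up after the values were seen, had 312 counts in the ezh2-/- library and 148 in the WT library. In a wider list of 32 ionocyte genes, 3 were matched: slc4a1b, described above, a locus matched to ceacam1 that was higher, and rhag, which was lower with 18.3 FPKM in the ezh2-/- library and 33.0 FPKM in the WT library and is also a red cell gene. Of 23 pronephros symbols, 3 were matched: the regulators osr1, lhx1a and mecom. All 3 were lower, against 31.9% of all listed genes. Their summed level was 10.19 FPKM in the ezh2-/- library and 22.7 FPKM in the WT library. Each lay above the median WT level of 2.41 FPKM, where 43.5% of listed genes were higher. In the narrower list of 11 pronephros markers, lhx1a alone was matched. With RNA from whole embryos, the tissues behind the values of these regulators are unknown. The SLC22 carriers, slc47a1 and slc13a4, which were higher, are not on the pronephros list. The part of any change in pronephros tissue was not tested. None of 24 neuronal carrier and channel genes was matched by symbol, and none of 6 skeletal muscle markers. A locus with no symbol, gene31314, has the product name of a cardiac alpha actin and had 21.3 FPKM in the ezh2-/- library and 120.6 FPKM in the WT library; whether it is the muscle marker actc1b was not settled. A gene outside the table was not analysed here, and its absence says nothing of its level.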

How the data were processed

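Per the labels' protocols, RNA was taken with Trizol and poly(A) libraries were made with the NEBNext Ultra kit, which does not mark strand, so reads of overlapping antisense genes cannot be told apart. The submitters' processing notes name GRCz10, Bowtie 0.12.2 and Cufflinks without roles; no source used here names the counting tool or the test. Per the file headers, the authors deposited raw counts, FPKM (scaled for length and depth), an FDR (adjusted p-value) and a log2 fold change per gene, for the genes they had selected. Library totals are therefore unknown. Columns were matched by the code in each sample title.

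The log2 fold change was log2((ezh2-/- count + 0.5)/(WT count + 0.5)) plus 0.0144, a scale read from the authors' log2 fold changes as their median excess over the plain count ratio (391 genes, 200 or more counts in each library). A fold printed as "-fold" is the ratio of counts on that scale. The members, families and gene lists were chosen with earlier results of these data known, and families were assigned from names alone. Symbols came from the table's KEGG matches and product names, updated by gene ID from RefSeq (assembly GRCz12tu), for 657 of 1287 genes. Named genes were up to 4 a family with the largest fold at 50 or more counts, and the 10 highest by FPKM; this gave 25, and the other 5 members are given to complete the list. Intervals were checked on simulated counts with known folds and counting error only, which does not cover variation between embryos or libraries. Analyses used Python 3.11.15, pandas 2.3.3, scipy 1.17.1 and numpy 2.4.6.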

Additional observations from a re-analysis of the deposited data

How the results depend on the processing

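The median log2 fold change of the members stayed between 1.39 and 1.52 under 10 alternatives. Folds of single genes were recomputed with 5 counts added, without scaling, with the scale from counts per FPKM, and in FPKM. In these, no named gene changed direction or left its counting interval. The other alternatives change only which genes are counted. With members taken by the solute carrier name only, 13 were higher and 1 lower. With slc4a1a and slc25a37 put back, 5 were lower. Where 5 counts were added, where the scale came from counts per FPKM, or where FPKM was used, 1 organic ion or drug carrier was lower in place of 2, because slc16a6a missed 2-fold. A minimum of 50 counts left 0 genes in the mitochondrial family, whose 1 gene, slc25a47a, falls under it. A pair of wider rules was added after seeing the data. Adding listed genes with KOG codes of mixed class, or genes with a solute carrier name in their KEGG annotation alone, kept the count of higher members within 1.5 times. No scaling by TMM or size factors was run, since those need genes that did not differ. No paired analysis was possible because each genotype has 1 library, which also left no replicate to leave out. Low counts limit slc25a47a, the slc22a13-like gene, slc22a7b.1, the kcna2-like gene and kcnf1a, each with 13 counts or fewer in a library.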

Other observations

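Among all 1287 listed genes 68.1% were higher, with 92.7% among those below the median WT level and 43.5% among the rest. Of 11 listed genes that only the KEGG annotation calls solute carriers, 10 were higher and 1 lower; the median log2 fold change was 1.49. Below the median WT level stood 7 of the 11, of which 6 were higher, and all 4 at or above it were higher. They add the amino acid carriers that the members lack: slc7a10a, of the family of neutral amino acid exchangers, had 139 counts in the ezh2-/- library and 31 in the WT library, and slc7a4, named for cationic amino acids, had 71 ezh2-/- and 24 WT counts. A locus of the neurotransmitter carrier family, si:ch211-132b12.1, had 60 ezh2-/- and 6 WT counts. The mitochondrial citrate carrier gene slc25a1b was the most abundant, with 2047 counts (25.7 FPKM) in the ezh2-/- library and 1030 counts (9.36 FPKM) in the WT library. By counts slc25a1b lay at the limit of 2-fold, 2.01-fold higher (1.86 to 2.17), whereas its FPKM ratio was larger, 2.75. The exception was the urea carrier gene slc14a2, with 19 counts in the ezh2-/- library and 75 in the WT library.

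Of 9 listed genes whose KOG code joins inorganic ion transport to another class, 8 were higher and 1, the adhesion receptor gene adgrv1, was lower. Below the median WT level stood 7 of the 9, all higher, a share near that of listed genes of that level. Cation channels of the TRP group, some of which respond to heat, stretch or calcium, were among the higher ones. Of these, trpm4a had 1113 counts in the ezh2-/- library and 451 in the WT library, trpv4 had 247 ezh2-/- and 93 WT counts, and a gene named TRPM6 had 220 ezh2-/- and 74 WT counts. The acid-sensing channel gene asic1a had 107 ezh2-/- and 23 WT counts. By product name the table holds 7 ABC transporters and aquaporins, and all 7 were higher. Of these, 2 were on a list of 20 such genes: abcc5 had 25.5 FPKM in the ezh2-/- library and 8.51 FPKM in the WT library, and abcb5 had 13.7 FPKM in the ezh2-/- library and 5.40 FPKM in the WT library. The others were looked up after the values were seen. They include the aquaporin gene aqp12, with 88.6 FPKM in the ezh2-/- library and 37.6 FPKM in the WT library, and the bile salt pump gene abcb11a, with 7.55 FPKM in the ezh2-/- library and 2.09 FPKM in the WT library. Also among them were abca12, abcg4a and a gene named multidrug resistance-associated protein 1-like. Below the median WT level stood 4 of the 7, all higher, and all 3 at or above it were higher. Of all listed genes in those ranges, 92.7% and 43.5% were higher. Of 20 genes of the ATF4 response and its amino acid carriers, sesn2 and atf3 were matched by symbol, both higher, and no carrier was.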
